A study of Arabidopsis thaliana with 6 samples.

Results

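Heat shock proteins and other molecular chaperones were followed in leaves of Arabidopsis plants that express AmGSTF1 and in leaves of wild-type plants. The 10 genes described are cytosolic, plastid and endoplasmic reticulum (ER) chaperones, a co-chaperone and regulators of the heat response, each read by 1 of the 22746 probe sets of the array. The probe sets of Hsp70-2, Fes1B, CRT1b and AT1G53540 were found through the platform annotation. The other 6 were chosen by probe set identifier, with the names HSP101, HSP70 (locus AT3G12580), HSP90.1, HSP21, HSFA2 and MBF1C. The platform annotation used here left these 6 unnamed, so their names rest on the choice of members alone.

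All plants were of the ecotype Col0, from seed kept at 4 °C for 72 hours before it was sown, and grew in days of 16 hours of light. The AmGSTF1 group carries a transgene for AmGSTF1, a glutathione transferase of a grass weed, and the Col0 group carries none. There were 3 samples per group, called biological replicates by the submitters. Every sample was 10 leaves afloat for 4 hours in a dilute solution of Tween 20 (0.1%) and acetone (0.1%) in a growth room at 20 °C, with no heat treatment and no herbicide named. The promoter of the transgene, the number of transgenic lines and the age of the plants are not given in the sources used here, and p-values measure only the spread between these samples.

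Chaperones bind proteins that are unfolded or newly made and keep them from aggregating. Hsp70 and Hsp90 refold or mature such clients in cycles of ATP hydrolysis, small heat shock proteins hold unfolded clients without ATP, and HSP101 pulls aggregates apart. In plants, heat activates heat shock factors that raise the transcription of many of these genes within minutes, whereas other family members are made in unstressed leaves.

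Of the 10 genes, 8 passed a filter that left out the 40% of probe sets with the lowest mean. Among these 8, Hsp70-2 and CRT1b fell and Fes1B rose in AmGSTF1 leaves (limma, Benjamini-Hochberg adjusted p under 0.05 over the 13647 probe sets kept), where 2.90% of all probe sets tested were called lower and 2.14% higher. The other 5 did not pass. These 5, AT1G53540, HSP101, HSP70, HSP90.1 and MBF1C, are genes induced by heat, and all had their highest signal on the array of Col0 replicate 1. HSP21 and HSFA2 did not pass the filter. Signals are MAS5 intensities, and differences are AmGSTF1 minus Col0 of log2(signal + 16), a scale that understates changes of dim probe sets. Since the arrays measure whole leaves, fewer cells of a type and less RNA per cell cannot be told apart.

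**Figure D1:**
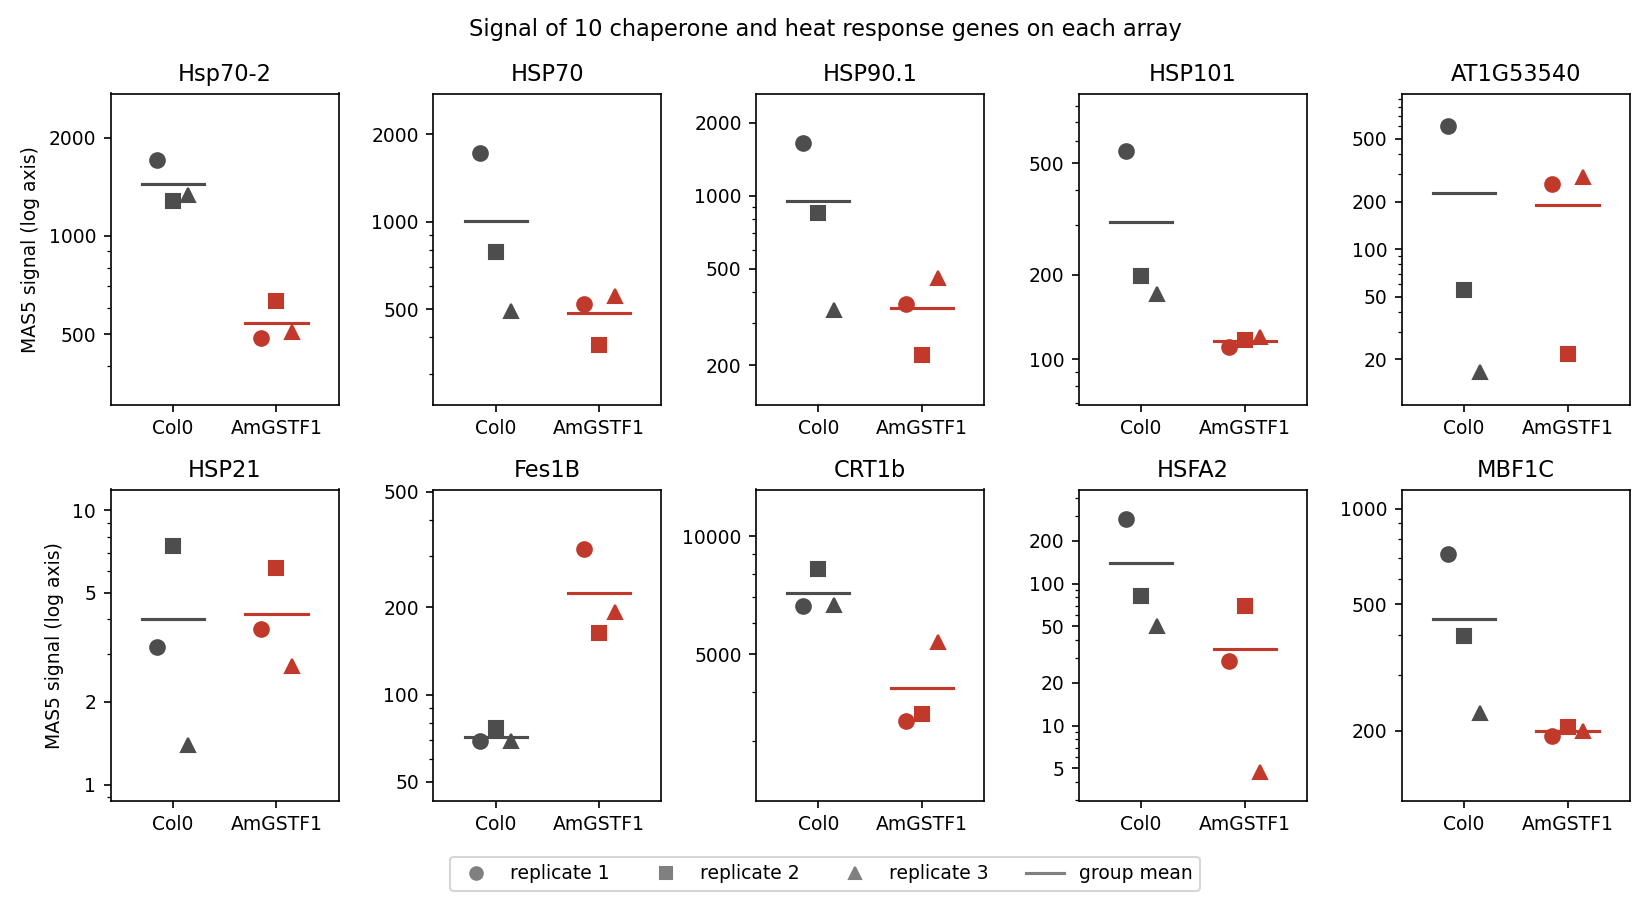
MAS5 signal (log axis, a different range in each panel) of the 10 genes on the 3 Col0 and 3 AmGSTF1 arrays, with a symbol for each replicate number and a line at the group mean. The groups lie apart for Hsp70-2, CRT1b, Fes1B, HSP101 and MBF1C, as they do for 27.6% of all probe sets kept. The Col0 replicate 1 signal of HSP101 was 553 against 171 to 198 on the other Col0 arrays.

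Hsp70-2, a cytosolic Hsp70, had signals of 1710, 1284 and 1331 on the Col0 arrays of replicates 1, 2 and 3 and of 486, 633 and 508 on the AmGSTF1 arrays. Each Col0 signal was above each AmGSTF1 signal by a wide margin, and both groups were tight. The mean went from 1442 ± 234 to 542 ± 79.2 (SD, n = 3). Hsp70-2 fell by 1.38 in log2 units (95% interval -1.76 to -1.01, limma adjusted p = 0.00876), which is 2.61-fold lower on the log2(signal + 16) scale. The spread of Hsp70-2 within groups was ordinary: its pooled SD was 0.21 on the log2 scale, larger than that of 46.7% of the probe sets kept. The call was lost without Col0 replicates 1 and 3 (adjusted p = 0.0556 and 0.0501, differences -1.25 and -1.43) and without AmGSTF1 replicate 1 (0.0536, -1.31). Over 17 alternatives it ranged from 0.00268 to 0.0556.

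The second Hsp70 chosen, HSP70 of AT3G12580, is a cytosolic form strongly induced by heat. Its signals were 1726, 789 and 495 in Col0 against 521, 375 and 554 in AmGSTF1. The groups overlapped, since Col0 replicate 3 was below AmGSTF1 replicates 1 and 3. HSP70 differed by -0.86 (95% interval -1.69 to -0.03, limma adjusted p = 0.201). Col0 replicate 1 was 2.69-fold above the mean of the other Col0 arrays, and without it the difference was -0.38 (adjusted p = 0.487, the highest of a range of 0.102 to 0.487 over 17 alternatives).

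HSP90.1, the heat-induced cytosolic Hsp90, had the same order of arrays as HSP70, with 1655, 853 and 339 in Col0 against 357, 220 and 458 in AmGSTF1. It differed by -1.21 (95% interval -2.28 to -0.14), which did not pass (limma adjusted p = 0.164), and the groups overlapped. Col0 replicate 1 was 2.78-fold above the mean of the other Col0 arrays. Without that array the difference was -0.68 (adjusted p = 0.436), and without Col0 replicate 3, the lowest Col0 array, it was -1.80 (0.0761), the extremes over 17 alternatives.

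HSP101, which frees proteins from aggregates and which plants need to survive severe heat, had signals of 553, 198 and 171 in Col0 against 110, 117 and 120 in AmGSTF1. Here the groups did not overlap, as for 27.6% of all probe sets kept. The AmGSTF1 arrays were close together (116 ± 5.09, SD, n = 3) while the Col0 arrays were not (308 ± 213). HSP101 differed by -1.11 (95% interval -1.93 to -0.29, limma adjusted p = 0.107). It passed with array weights (-1.30, adjusted p = 0.0499) but in none of the other 16 alternatives (up to 0.271), and without Col0 replicate 1 it was -0.61 (0.224).

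AT1G53540 encodes a small heat shock protein of the cytosol, class I, made in large amounts during heat. Its signals were 607, 54.9 and 16.5 in Col0 against 260, 21.5 and 287 in AmGSTF1. Signals were high on Col0 replicate 1 and AmGSTF1 replicates 1 and 3 and low on the other 3 arrays, so the range within each group covered most of the range of all arrays. Its pooled SD of 1.97 on the log2 scale was larger than that of 99.99% of the probe sets kept, whose median was 0.22. The 3 low signals lie below the level under which 40% of probe sets lay (68.7 to 84.5 on the 6 arrays). Part of this spread may thus be between signal and background. The difference of 0.38 (95% interval -1.99 to 2.74, limma adjusted p = 0.870) turned to -0.52 without Col0 replicate 3, to -0.08 without AmGSTF1 replicate 1 and to -0.15 without AmGSTF1 replicate 3, and was 1.61 without Col0 replicate 1 (adjusted p from 0.377 to 0.989 over 17 alternatives).

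HSP21, a small heat shock protein of the chloroplast, was near the bottom of the scale on every array. Its signals of 3.18, 7.44 and 1.40 in Col0 against 3.68, 6.18 and 2.70 in AmGSTF1 lie far below the level under which 40% of probe sets lay (68.7 to 84.5 on the 6 arrays). No fold is given for it. In the fit with no filter HSP21 differed by 0.02 (95% interval -0.59 to 0.63, limma adjusted p = 0.982).

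Fes1B belongs to a family of nucleotide exchange factors for Hsp70, named after the yeast protein. It was the one member higher in AmGSTF1 that passed, with 68.9, 76.4 and 69.0 in Col0 against 319, 163 and 192 in AmGSTF1. The lowest AmGSTF1 signal exceeded the highest Col0 signal more than 2-fold, and the Col0 arrays were almost equal (71.5 ± 4.32, SD, n = 3). These Col0 signals lie at the level under which 40% of probe sets lay on the Col0 arrays (68.7 to 77.4). Passing the filter thus leaned on the AmGSTF1 arrays, and the fold rests on a baseline at that level. Fes1B rose by 1.41 in log2 units (95% interval 0.83 to 1.99, limma adjusted p = 0.0217), 2.65-fold on the log2(signal + 16) scale. The call was lost with no filter (adjusted p = 0.0503). It was also lost without Col0 replicate 1 (0.0993), Col0 replicate 3 (0.0824) and AmGSTF1 replicate 1 (0.105), where the differences were 1.39, 1.39 and 1.14, within a range of 0.00793 to 0.105 over 17 alternatives.

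CRT1b, a calreticulin, holds calcium and sugar-tagged folding proteins in the ER and rises when the ER is under folding stress. Its signals were 6624, 8245 and 6659 in Col0 against 3372, 3515 and 5369 in AmGSTF1. The groups did not overlap, although AmGSTF1 replicate 3 stood nearer to the Col0 arrays than to the other AmGSTF1 arrays. CRT1b fell by 0.84 in log2 units (95% interval -1.26 to -0.41, limma adjusted p = 0.0378), which is 1.78-fold lower on the log2(signal + 16) scale. This was the least stable of the 3 calls, since leaving out any array but AmGSTF1 replicate 3 ended it. The adjusted p was 0.118, 0.0618 and 0.105 without Col0 replicates 1, 2 and 3, and 0.155 and 0.0574 without AmGSTF1 replicates 1 and 2, with differences of -0.71 to -0.89. It was also lost with no filter (0.0750), quantile normalization (0.0582), loess normalization (0.0506) and no intensity trend (0.0680).

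The regulators were HSFA2, a heat shock factor that heat itself induces and that keeps the response going, and MBF1C, a transcriptional coactivator that accumulates in heat. MBF1C had signals of 718, 398 and 228 in Col0 against 193, 205 and 199.9 in AmGSTF1. As for HSP101 and for 27.6% of all probe sets kept, the groups did not overlap. The AmGSTF1 arrays were again close together (199.3 ± 6.50 against 448 ± 249 in Col0, SD, n = 3). MBF1C differed by -0.96 (95% interval -1.70 to -0.23, limma adjusted p = 0.118), or by -0.56 without Col0 replicate 1 (0.2998, with 0.0628 to 0.2998 over 17 alternatives, none of which passed).

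HSFA2 had signals of 287, 81.5 and 50.4 in Col0 against 28.8, 69.9 and 4.75 in AmGSTF1. Most of these are at or below the level of the filter, and the groups overlapped. In the fit with no filter HSFA2 differed by -1.54 (95% interval -3.01 to -0.07, limma adjusted p = 0.288), and leaving out Col0 replicate 1 made the difference in means -0.90.

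**Figure D2:**
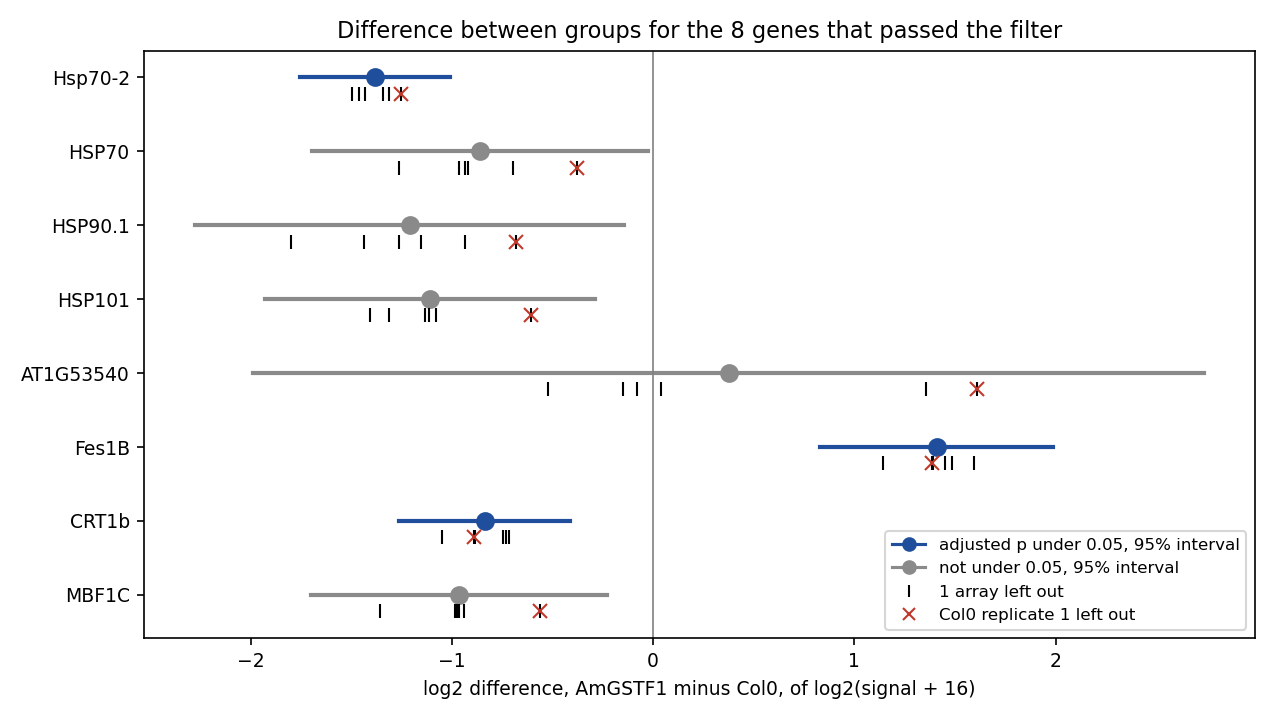
Difference between groups (x axis, AmGSTF1 minus Col0 on the log2 scale) of the 8 genes that passed the filter, as points with 95% intervals from limma, in blue where the adjusted p was under 0.05, with ticks for the value without each array and a red cross for that without Col0 replicate 1. Without that array HSP101, HSP70, HSP90.1 and MBF1C lie at -0.38 to -0.68, while Hsp70-2 stays at -1.25 and Fes1B at 1.39.

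Most of the 10 genes thus followed 1 of 2 patterns, with AT1G53540 and HSP21 in neither. In Hsp70-2, CRT1b and Fes1B the array of Col0 replicate 1 was within 1.31-fold of the mean of the other Col0 arrays. In HSP101, HSP70, HSP90.1, MBF1C and, among those left out by the filter, HSFA2, the Col0 replicate 1 array was highest, Col0 replicate 2 was next and the 3 AmGSTF1 arrays were low or mixed with Col0 replicate 3. On Col0 replicate 1 these 5 genes stood 1.29 to 2.05 above their mean over the 6 arrays on the log2 scale. The highest value of the 7 heat-inducible genes (these, AT1G53540 and HSP21) was on Col0 replicate 1 for 6, while 15.2% of all probe sets kept had theirs there. For Col0 replicate 1 limma's array weight, which is higher where an array departs less from its group mean, was 1.44, the highest of the 6. The others had 0.60 to 1.42. These weights cannot show whether the array stood apart as a whole. Whether the leaves of this replicate differed in handling or temperature was not tested.

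**Figure D3:**
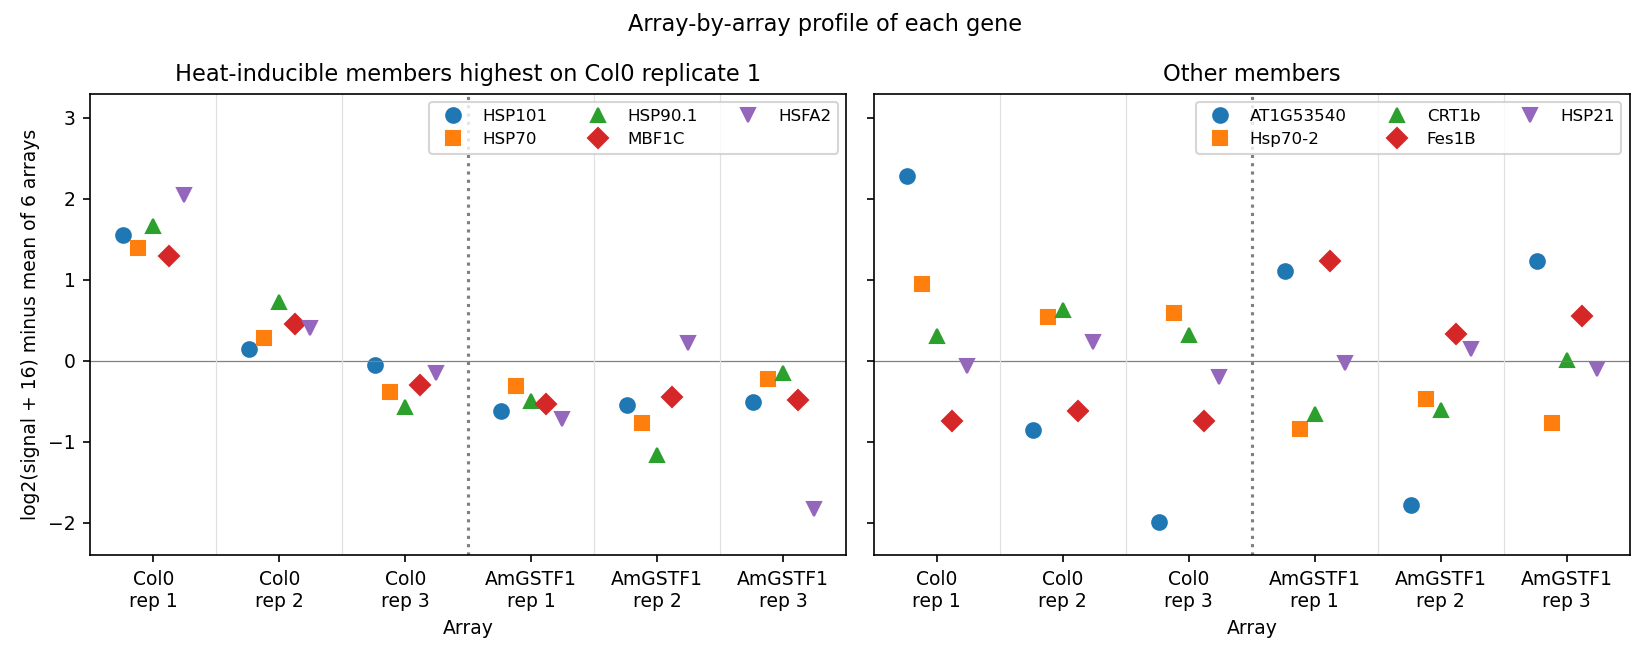
Log2(signal + 16) of each gene on each array minus its mean over the 6 arrays (y axis), with the arrays on the x axis and Col0 left of the dotted line. The left panel shows the 5 heat-inducible genes at 1.29 to 2.05 on Col0 replicate 1, and the right panel shows AT1G53540 at 2.28, 1.103 and 1.24 on Col0 replicate 1 and AmGSTF1 replicates 1 and 3 and at -0.86 to -1.98 on the others.

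The spread within Col0 exceeded that within AmGSTF1 on the log2 scale in 8 of the 10 genes, and in 50.8% of all probe sets kept. For MBF1C the SD was 0.80 in Col0 against 0.04 in AmGSTF1. For HSP101 it was 0.88 and 0.06. The exceptions were Fes1B (0.07 and 0.47) and CRT1b (0.18 and 0.37). In pooled SD, AT1G53540, HSP90.1, HSP70, HSP101 and MBF1C were above 96.3% to 99.99% of the probe sets kept, and these 5 had the widest intervals of the 8.

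The probe sets most like the heat-inducible genes were sought by the root mean square (RMS) difference, over the 6 arrays, between each probe set's centred log2 values and the median of the 7 genes. Among 7351 other probe sets with 1 gene the closest were AT5G50915 (RMS 0.32), AT5G38130 (0.32), JAL34 (0.33), AT1G17830 (0.35) and AT3G15310 (0.35), where the median over all was 0.78. JAL34, a jacalin-related lectin gene, had signals of 2884, 1862 and 1600.1 in Col0 against 1017, 1243 and 1296 in AmGSTF1. It differed by -0.79 (95% interval -1.27 to -0.31, limma adjusted p = 0.0638), and none of the 5 passed, though JAL34 did with median centring (0.0447) and array weights (0.0293).

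Chaperone genes outside the 10 were looked up in lists by family. Of 134 genes listed, 43 had a probe set that could be named, members included, and 37 passed the filter. Of the 29 that were no member, 0 rose and 2 fell with limma at an adjusted p under 0.05, against 5.04% called in either direction among all probe sets. At an unadjusted p under 0.05 there were 13 of 29, against 23.3%. Their median difference was -0.25, that of all probe sets 0.05, and 22 of 29 had a lower mean in AmGSTF1, as did 44.1% of all probe sets. Groups did not overlap for 11 that were lower and 2 that were higher, where 13.1% and 14.5% of all probe sets did not overlap in these directions.

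Of 18 listed genes of the Hsp70 family 5 had a named probe set, and 3 of these fell with limma (2.90% of all probe sets did). The median of the 5 was -0.86 against 0.05 over all probe sets. Members are among them: Hsp70-2 is 1 of the 3 that fell, and the uncalled difference of HSP70 is the median. AT3G09440, listed as HSC70-3, a cytosolic Hsp70 made without heat, had signals of 10457, 8646 and 8407 in Col0 against 4077, 5286 and 3259 in AmGSTF1. All Col0 signals were above all AmGSTF1 signals, as for Hsp70-2. AT3G09440 fell by 1.14 in log2 units (95% interval -1.55 to -0.73, limma adjusted p = 0.0169), and the call was lost without Col0 replicate 1 (0.0873), Col0 replicate 3 (0.0689) and AmGSTF1 replicate 1 (0.0891). AT4G16660, listed as HSP70-17, had 2087, 1988 and 2093 in Col0 against 1182, 1384 and 1525 in AmGSTF1. It fell by 0.59 (95% interval -0.91 to -0.28, limma adjusted p = 0.0420). The call was lost with no filter (0.0562), without the intensity trend (0.0689), without Col0 replicates 1 and 3 (0.146 and 0.132) and without AmGSTF1 replicates 1 and 3 (0.164 and 0.0707). AT1G11660, listed as HSP70-16, differed by 0.01 (-0.33 to 0.34). The cytosolic Hsp70 genes are close in sequence, and whether probe sets of this family share signal was not tested.

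Among co-chaperones 9 of 20 listed genes passed the filter, of which Fes1B rose and 0 fell with limma (2.14% and 2.90% of all probe sets did). Fes1C had 120, 278 and 187 in Col0 against 340.03, 309 and 467 in AmGSTF1, and differed by 0.93 (95% interval 0.31 to 1.55, limma adjusted p = 0.0820). Fes1A, which protects cytosolic Hsp70 in heat, had 1236, 445 and 708 in Col0 against 333, 360 and 382 in AmGSTF1, and differed by -1.0003 (-1.67 to -0.33, limma adjusted p = 0.0840). The groups did not overlap for any of the 3, as for 27.6% of all probe sets kept. Fes1A was highest on Col0 replicate 1, as 6 of the 7 heat-inducible genes were. Without that array Fes1A differed by -0.63 (0.206, within a range of 0.0143 to 0.241 over 17 alternatives). Fes1C and Fes1A passed with array weights (adjusted p = 0.0228 and 0.0261) and without Col0 replicate 2 (0.0255 and 0.0143), and in none of the other 15 alternatives. AT5G48570, the heat-induced prolyl isomerase ROF2, had 455, 214 and 143 in Col0 against 107, 48.5 and 155 in AmGSTF1. Its RMS difference from the heat-inducible profile was 0.38, the ninth smallest of the 7351, and it differed by -1.22 (-2.20 to -0.25, limma adjusted p = 0.131), or by -0.79 without Col0 replicate 1 (0.374). The remaining co-chaperones, Hop1, Hop2, SGT1A, AT4G02450 and SQN, lay between -0.37 and 0.03.

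Among small heat shock proteins 6 of 16 listed genes passed the filter, and 0 rose and 0 fell with limma. Of these 6, 3 had an unadjusted p under 0.05, against 23.3% of all probe sets. AT2G29500, a class I gene like AT1G53540, had 1566, 454 and 123 in Col0 against 490.3, 88.5 and 582 in AmGSTF1. The 3 arrays with the highest signals were the same for both genes. In AT2G29500, however, Col0 replicate 2 (454) was close to AmGSTF1 replicate 1 (490.3). The AT2G29500 difference of -0.57 (95% interval -2.46 to 1.32, limma adjusted p = 0.731) turned to 0.31 without Col0 replicate 1 and to 0.23 without AmGSTF1 replicate 2. AT1G52560 and ATHSP22.0, which did not pass the filter, also had their 3 highest signals on Col0 replicate 1 and AmGSTF1 replicates 1 and 3. Their signals of 4.01 to 85.6 and of 1.24 to 69.4 lie mostly below the level of the filter, so this order may be one of background. AT5G37670 and AT2G19310, which passed the filter, did not have their 3 highest signals on these arrays. AT5G37670 had 188, 64.7 and 136 in Col0 against 97.8, 72.9 and 98.0 in AmGSTF1 (difference -0.37, limma adjusted p = 0.549). AT2G19310 had 633, 735 and 674 against 528, 603 and 462 (difference -0.35, limma adjusted p = 0.195). AT5G51440, listed as HSP23.5, had 278, 70.6 and 168 in Col0 against 58.4, 32.9 and 39.3 in AmGSTF1, and differed by -1.51 (-2.44 to -0.58, limma adjusted p = 0.0656). It passed with median centring (0.0461), with array weights (0.0215) and without Col0 replicate 2 (0.0138), 3 of the 15 alternatives in which it was tested. Without Col0 replicate 1 or 3 it did not pass the filter. All its AmGSTF1 signals and that of Col0 replicate 2 are near or below the level of the filter (68.7 to 84.5 on the 6 arrays). AT4G21870, listed as HSP15.4, went the other way, with 72.9, 123 and 132 in Col0 against 446, 335 and 169.6 in AmGSTF1. It differed by 1.35 (0.60 to 2.097, limma adjusted p = 0.0508) and passed with 20% of probe sets left out (0.0472), robust estimates (0.0496), array weights (0.0346) and without AmGSTF1 replicate 3 (0.0282).

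In ER folding 5 of 21 listed genes passed the filter, and CRT1b fell while 0 rose (2.90% and 2.14% of all probe sets did). ATERDJ3B, a partner of the ER Hsp70 BiP, had 4798, 5053 and 3242 in Col0 against 2242, 1657 and 3563 in AmGSTF1. The groups overlapped in AmGSTF1 replicate 3, the array on which CRT1b also stood nearest to Col0. ATERDJ3B differed by -0.85 (95% interval -1.45 to -0.25, limma adjusted p = 0.0968), or by -1.15 without that array (0.0479). The regulators of the ER stress response BZIP60 and BZIP28 differed by 0.05 (-0.33 to 0.42) and 0.12 (-0.28 to 0.51), and the calnexin AT5G07340 by -0.26 (-0.63 to 0.10).

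Chaperonins, which fold proteins inside a closed barrel, had 9 of 17 listed genes with a named probe set, all kept by the filter. Of these, 0 passed limma's test and 3 had an unadjusted p under 0.05, a share near the 23.3% of all probe sets. Their median difference was -0.20. The chloroplast subunit Cpn60beta2 had the smallest p, with 1491, 1013 and 1544 in Col0 against 752, 938 and 996 in AmGSTF1, and differed by -0.57 (95% interval -0.996 to -0.14, limma adjusted p = 0.114). It passed without Col0 replicate 2 (-0.76, 0.0285) and with array weights (-0.64, 0.0427). The other 8, all subunits of the cytosolic chaperonin CCT, lay between -0.35 and 0.09. In the heat shock factor, Hsp90 and HSP100 lists only members had a probe set that could be named. The annotation used here left 8730 of the 22746 probe sets unnamed, so other listed genes may be on the array. HSA32, a heat-induced gene on which lasting heat tolerance depends and the single gene with a named probe set in a list of 5 other heat-induced genes, did not pass the filter, with signals from 39.1 to 80.5 in Col0 against 24.8 to 94.1 in AmGSTF1.

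**Figure D4:**
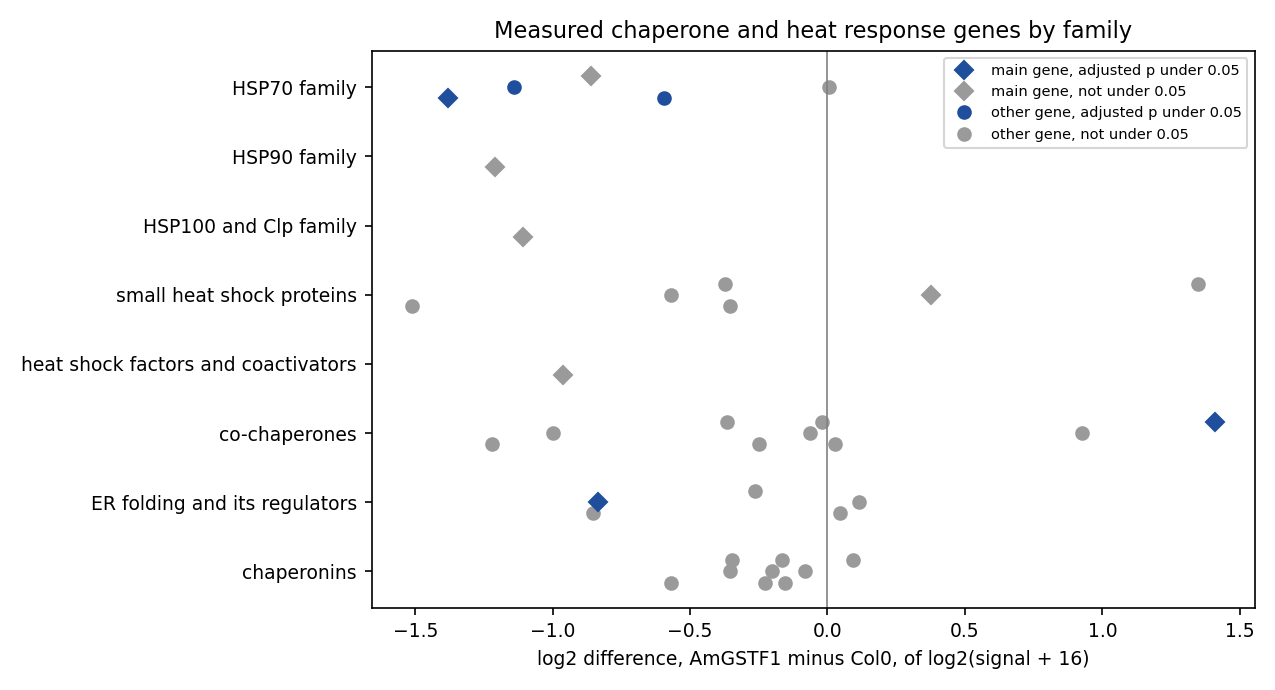
Difference between groups (x axis, AmGSTF1 minus Col0 on the log2 scale) of the 37 measured chaperone and heat response genes by family (y axis), with diamonds for the main genes, circles for the others and blue where the adjusted p was under 0.05. The called falls lie in the Hsp70 family and ER folding and the called rise, Fes1B at 1.41, among the co-chaperones, and the points are spread vertically for legibility only.

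Over the 13647 probe sets kept, 292 were higher and 396 lower in AmGSTF1, or 222 and 599 with median centring. The groups did not overlap for 27.6% of probe sets. Pearson's r between arrays, taken over probe sets and so a description only, was 0.963 to 0.977 within groups and 0.932 to 0.965 between them. The total of calls without 1 array ranged widely, with 6 higher and 5 lower without Col0 replicate 1, 8 and 5 without Col0 replicate 3, 7 and 10 without AmGSTF1 replicate 1, and 107 and 144 without AmGSTF1 replicate 3. Without the replicate 2 arrays there were 603 and 530 (Col0) and 503 and 566 (AmGSTF1).

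The labelled tissue was checked against leaf markers. RCA, Rubisco activase, had signals of 18989 to 22829 in Col0 against 15370 to 21336 in AmGSTF1, and LHCB4.2, an antenna protein gene, 7542 to 8565 and 8260 to 13241. They differed by -0.17 (95% interval -0.50 to 0.16) and 0.48 (0.08 to 0.87, limma adjusted p = 0.145), and LHCB4.2 passed without AmGSTF1 replicate 2 (0.0199). The root marker PYK10 had 38.5 to 85.9 in Col0 against 63.2 to 173 in AmGSTF1, and the guard cell regulator FMA 107 to 127 and 60.0 to 96.3, where the groups did not overlap (difference -0.55, limma adjusted p = 0.201). Vascular SWEET11 differed by 0.08 (-0.43 to 0.60). Of 18 listed markers 5 had a named probe set, and 0 of the 6 for epidermis, flower and dividing cells did. The part of tissue composition in these results was thus not tested beyond those 5.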

How the data were processed

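The values the authors deposited are linear intensities: MAS5 signals from Affymetrix Expression Console, version 1.1, as the submitters' processing notes state. The mean after trimming 2% at each end was 496 on every array, so no further scaling was applied. No detection calls were used. The number of arrays limits the precision.

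Samples were grouped by the labelled transgene. Probe sets were tested as log2(signal + 16), without the lowest 40% by mean, two-sided, with an lmFit model and trended eBayes of limma 3.58.1 (R 4.3.3) and no replicate term. The smallest p of an exact permutation test of 3 against 3 arrays is 0.1, and that test was left out. The steps were tested on simulated data. Figures were drawn with Python 3.11.15 and matplotlib 3.10.9.

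Probe sets were named by the platform annotation through the RefSeq table of TAIR10.1 (13513 had 1 gene, 503 several and 8730 none here), and a gene with several by its brightest. All 152 loci in the lists were in that table. Members, lists and tests were chosen with earlier results of these data known. The naming rule took all members, the 5 closest by RMS and, per list, the smallest p and up to 4 calls. Fes1A, Fes1C, ATERDJ3B, AT5G48570, AT2G29500, AT5G51440, the other family members and the markers were added after their values were seen. Sequences were not used here.

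The 17 alternatives were 11 settings and leaving out each of the 6 arrays. The settings were pseudocounts 1 and 64, no filter or 20%, quantile, median and loess scaling, no trend, robust estimates, array weights and a replicate block. A threshold of adjusted p under 0.1 was applied only to the counts of calls and is not among the 17.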

Additional observations from a re-analysis of the deposited data

How the results depend on the processing

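Members called higher and lower (1 and 2) numbered 0 and 1 with no filter, 0 and 1 with the replicate block, and 0 to 1 and 0 to 2 without 1 array. Lower members numbered 1 with quantile normalization, 1 with loess normalization and 1 with no intensity trend. Probe sets called higher and lower (292 and 396) numbered 123 and 213 with no filter, 192 and 237 with no trend, 814 and 827 with array weights, 745 and 777 at an adjusted p under 0.1, 40 and 38 with the replicate block, and 222 and 599 with median centring. They ranged from 6 to 603 and from 5 to 566 without 1 array. Array weights, which also call HSP101, give 3 lower members. The cause of these changes was not tested.

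Sign changes were seen in AT1G53540 (-0.52 to 1.61 without 1 array), AT2G29500 (-1.45 to 0.31) and SWEET11 (-0.17 to 0.30 without 1 array, and -0.0052 with median centring), and in none of the other genes recomputed under the alternatives in which they passed the filter.

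No strong link was seen between the 2 arrays that share a replicate number. The correlation of their departures from the group mean was 0.146, -0.027 and -0.050 for replicates 1, 2 and 3. These values cannot show whether samples of the same number were grown or handled together. With the block, Fes1B (adjusted p = 0.0580), CRT1b (0.0733) and AT4G16660 (0.0833) lost their calls. HSP21 and, apart from the Col0 replicate 1 signal of 287, HSFA2 lie near or under the level under which 40% of probe sets lay. So do the Col0 signals of Fes1B and the low signals of AT1G53540 and AT5G51440. No detection calls tell signal from background there.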
